A study of Sus scrofa with 24 samples.

Results

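The nuclear receptor co-repressor gene NCOR1 gave rise to 12 of the 3000 circular RNAs (circRNAs) in the count table of Meishan pig spleen. A circRNA was taken as an NCOR1 circRNA where both ends of its back-splice matched exon ends of the RefSeq gene NCOR1 on the same strand of Sscrofa11.1 within 1 base, and all 24 ends matched exactly. Assigning circRNAs to host genes used no measured value, but NCOR1 was chosen with earlier results of these data known. Spleens of 24 healthy Meishan pigs had been sequenced at 1, 7, 14, 21, 28, 35, 120 or 180 days of age, called 1d to 180d here, with 3 pigs and 3 libraries at each of these 8 stages. The stages held different animals on the same diet, so that each library was 1 pig of untreated spleen at 1 age, and 1d served as the control of all 7 later stages. The p-values therefore measure the spread between pigs, and a chance value at 1d enters every comparison with it. In the tests of an age slope, that spread also holds departures of the stage means from a straight line on log2 age. The table gave raw counts of reads across each back-splice junction, with 16273 to 87867 reads per library (median 37510), and a read seen once in a library was listed at 0. In the study's list of reads, 7 libraries had a share of valid bases after trimming under 0.96, namely 1 of 21d and 2 each of 35d, 120d and 180d, so this split runs with age.

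NCOR1 is a large nuclear scaffold protein that represses transcription. It binds nuclear receptors that lack an activating ligand, and other repressors such as BCL6, and brings the histone deacetylase HDAC3 with its partners TBL1X, TBL1XR1 and GPS2 to their target genes. In the spleen such repressors are known from macrophages and from germinal centre B cells. A circRNA forms when the donor site behind an exon joins the acceptor site in front of the same or an earlier exon, and complementary sequences in the introns on both sides are known to favour such back-splicing. The result is a closed circle without cap or tail, which is read in sequencing only through its junction. A back-splice count therefore covers 1 junction whatever the length of the circle. Counts of different circles are set side by side here, but whether circles of unlike length and GC content are detected equally well was not tested.

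NCOR1 lay on the + strand of chromosome 12 at chr12:59256868-59392564, with 47 exons in its RefSeq model, 46 of them coding. Exons 20 and 21 of the model are only 2 bases apart, less than the 50 bases set here as the shortest intron. Exon numbers from 21 on and the acceptors counted over the gene follow the model as it stands. The 12 circles fell into 3 groups along the gene and used 17 of its exons. The 5′ group started at exon 2, which holds the start codon after 69 bases of UTR, and ended at exon 3 (circRNA_08731), exon 4 (circRNA_08732), exon 5 (circRNA_08733) or exon 6 (circRNA_08734). The middle group held 6 circles, and the 3′ group held circRNA_08770 (exons 22 to 23) and circRNA_08771 (exons 22 to 24). In the middle group circRNA_08746 ran over exons 7 to 11, whereas the other 5 joined 3 acceptors with 2 donors. circRNA_08751 (exons 10 to 14, chr12:59319172-59323398) and circRNA_08752 (exons 10 to 15, chr12:59319172-59331703) began at exon 10. circRNA_08755 (exons 11 to 14, chr12:59320434-59323398) and circRNA_08756 (exons 11 to 15, chr12:59320434-59331703) began at exon 11. circRNA_08758 (exons 12 to 14, chr12:59321588-59323398) began at exon 12, and a circle of exons 12 to 15 was not among the 3000 circRNAs of the table.

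**Figure D1:**
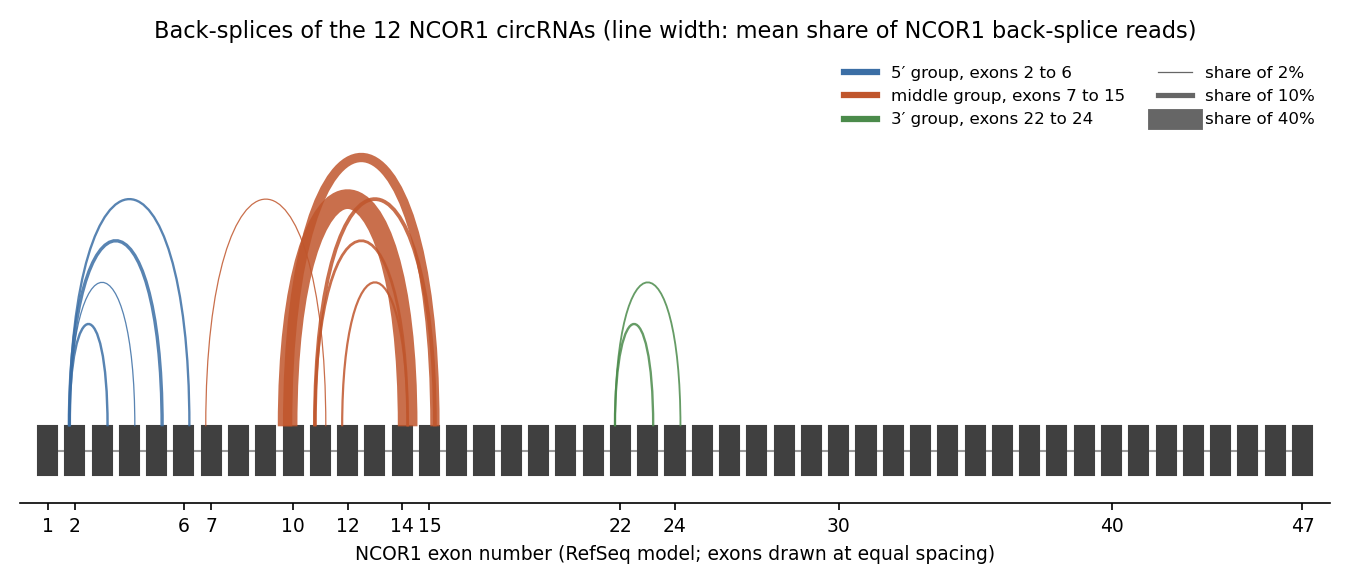
Back-splices of the 12 NCOR1 circRNAs on the 47 exons of the RefSeq gene model, drawn at equal spacing. Each arc joins the first and last exon of a circle, its width stands for the mean share of the circle in the NCOR1 back-splice reads over 24 libraries, and the widest arc is circRNA_08751 (exons 10 to 14, 37.8%).

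The junctions of these 5 circles and of circRNA_08770 are shown because the results turn on them. Each line holds the last 30 bases of the last exon in lower case and the first 30 bases of the first exon in capitals, 5′ to 3′ on the + strand, from the Sscrofa11.1 sequence with RefSeq exon ends. The first part is shared by circles of 1 donor and the capitals by circles of 1 acceptor.
circRNA_08751: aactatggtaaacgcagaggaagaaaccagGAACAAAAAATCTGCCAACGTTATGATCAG
circRNA_08752: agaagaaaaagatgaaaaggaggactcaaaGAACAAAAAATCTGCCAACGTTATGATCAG
circRNA_08755: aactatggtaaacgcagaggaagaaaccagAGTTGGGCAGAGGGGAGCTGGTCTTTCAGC
circRNA_08756: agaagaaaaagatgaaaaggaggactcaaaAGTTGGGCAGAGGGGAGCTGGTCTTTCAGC
circRNA_08758: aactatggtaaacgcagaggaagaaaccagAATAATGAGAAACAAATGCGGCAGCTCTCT
circRNA_08770: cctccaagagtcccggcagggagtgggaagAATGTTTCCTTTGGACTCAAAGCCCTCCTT

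All 6 acceptors ended in AG and all 9 donors began with GT. The 3 acceptors that were joined with the exon 14 donor are shown because 1 of them, that of exon 10, carried most of the NCOR1 reads. Each line holds the last 20 bases of the intron, with the AG in capitals.
exon 10 acceptor: ttgctacgggtatttaatAG
exon 11 acceptor: catttctccctcatatttAG
exon 12 acceptor: tttctttttttttcccgtAG
Of the 18 bases before the AG, 10 were pyrimidines (C or T) at exon 10, 15 at exon 11 and 17 at exon 12, and the median over all 46 acceptors of the gene was 14. The exon 7 acceptor, used by circRNA_08746, had 11, so a low number was found at the acceptor of the leading circle and at that of the rarest one. The 2 donors these acceptors were joined with are shown as the last 10 bases of the exon and the first 10 of the intron, with the GT in capitals.
exon 14 donor: aagaaaccagGTgtgttccg
exon 15 donor: aggactcaaaGTgagttaaa

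The circles measured 311 to 801 bases of exon, counting every exon between the ends, although the table does not show whether inner exons were retained. The 6 circles of the middle group had a GC content of 37.5% to 40.6%, whereas those of the 5′ and 3′ groups had 55.2% to 58.5%. Of the 8 circles outside the 5′ group, all were coding sequence throughout, and none held a stop codon in the reading frame of NCOR1 when read once around. circRNA_08746 (441 bases), circRNA_08751 (600 bases), circRNA_08756 (552 bases) and circRNA_08758 (336 bases) were multiples of 3 in length, so that the frame was kept across their junctions. The other 4 of these 8 circles shifted it. These are features of the sequence, and no translation was measured.

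The 13 introns beside an end of a circle had a median length of 4963 bases, against 1240.5 bases for the 32 other NCOR1 introns of at least 50 bases. Intron 1, upstream of the whole 5′ group, was the longest of the gene with 15970 bases. Intron 14, downstream of circRNA_08751, circRNA_08755 and circRNA_08758, had 8180 bases and ranked 4th. The introns upstream of exons 10, 11 and 12 had 2430, 1089 and 1063 bases. In the masked reference, repeats took a median of 27.8% of the introns beside a circle end and 7.99% of the others. All introns beside a circle end lay among introns 1 to 24, and the others include all of introns 25 to 46. Within introns 1 to 24, the others differed widely. Introns 2, 12, 13, 17, 18 and 22 had 29.9% to 60.7% of repeats, and introns 7, 8, 16 and 19 had 4.32% to 18.8%. The part of the place in the gene in these medians was not tested.

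A search for inverted matches of at least 100 bases and 70% identity between the introns on both sides of a circle found 1 or more in 10 of 12 circles. Such matches were found in 172 of 978 other pairs of NCOR1 introns (17.6%). circRNA_08733 had 37 of them, the best 292 bases at 89.7% identity. circRNA_08751 had 3 (best 247 bases, 76.5%) and circRNA_08758 had 3 (best 245 bases, 80.0%). The 2 circles without a match were circRNA_08752 and circRNA_08756, the 2 that use the exon 15 donor. Circles share introns and long introns offer more room for a match, so these figures describe the locus and carry no test.

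The 12 circRNAs together had 4864 back-splice reads, 72 to 557 per library and 0.476% of all counts of the table. Summed per host gene, NCOR1 ranked 16th of 1675 host genes by mean normalized count. A normalized count is the raw count brought to a common library size with the TMM factors of edgeR. Of the 288 single counts, 15 were 0.

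circRNA_08751 led in 24 of 24 libraries. It took 37.8% ± 4.02 of the NCOR1 back-splice reads (SD, n = 24 libraries), with a lowest library of 29.4%, a median of 38.0% and a highest of 46.1%. circRNA_08752, which has the same acceptor, followed with 17.9% ± 4.06. The exon 10 acceptor therefore carried 55.7% ± 4.50 of the reads, that of exon 2 18.1% ± 4.64 and that of exon 11 12.6% ± 3.42. Among donors, exon 14 carried 47.3% ± 5.39 and exon 15 carried 25.2% ± 4.42.

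The other 10 circles had mean shares of 1.31% (circRNA_08746) to 7.26% (circRNA_08756), with library SDs of 0.927 to 2.68 percentage points. Between them lay circRNA_08733 with 6.49% ± 2.67, circRNA_08755 with 5.32% ± 2.52, circRNA_08731 with 4.68% ± 2.44 and circRNA_08770 with 4.53% ± 2.68. circRNA_08734 (4.48% ± 2.14), circRNA_08758 (4.25% ± 2.07), circRNA_08771 (3.54% ± 1.57) and circRNA_08732 (2.46% ± 1.52) came after them. Each neighbour in this order of 10 lay within 1 SD, the larger of the pair, of the next. Of all places only the first and second, circRNA_08751 and circRNA_08752, stood apart from the next one by more than the spread between libraries. Places further apart could differ: circRNA_08756 had a lowest library of 4.03% and circRNA_08746 a highest of 3.41%. circRNA_08746 was the rarest with 62 reads in all and 0 in 5 libraries, and 2 of the 3000 circRNAs had a lower mean level.

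By region, the middle group held 73.8% ± 5.27 of the reads, the 5′ group 18.1% ± 4.64 and the 3′ group 8.08% ± 3.03. The effective number of isoforms, the inverse of the summed squared shares, was 4.96 ± 0.616. It would be 12 if all circles were equally common. Of the host genes nearest in number of circRNAs, SMARCC1 (11 circRNAs) had a leading share of 39.98% ± 6.54 and an effective number of 4.83. PRPSAP2 (10 circRNAs) had 26.5% ± 5.17, with the same circle ahead in 16 of 24 libraries, and an effective number of 5.64. TRPM7 (9 circRNAs) had 65.3% ± 4.74 and 2.25. These genes were not compared by a test.

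The exon 14 donor took a smaller share at the exon 11 acceptor than at the exon 10 acceptor. Beginning at exon 10, the exon 14 donor supplied 67.9% ± 6.17 of the reads that ended at exon 14 or 15. Beginning at exon 11 it supplied 41.1% ± 13.2 (SD, n = 24 libraries each), so that the longer circle was on average the more common one there. The difference within a library was 26.8 ± 13.8 percentage points, with a lowest of 1.26, a median of 26.5 and a highest of 65.9, and it was positive in 24 of 24 libraries. By stage its mean ran from 12.9 points at 14d to 43.6 points at 1d. The 1d value rests in part on a library with 0 and 6 reads at the 2 exon 11 junctions, where a single read would have been listed at 0. Left out in turn, no library moved the mean beyond 25.1 to 27.9 points. It was 27.0 in the 17 libraries whose share of valid bases after trimming was at least 0.96, positive in all of them. This comparison was formulated after the values had been seen, and is given as a description without a test.

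**Figure D2:**
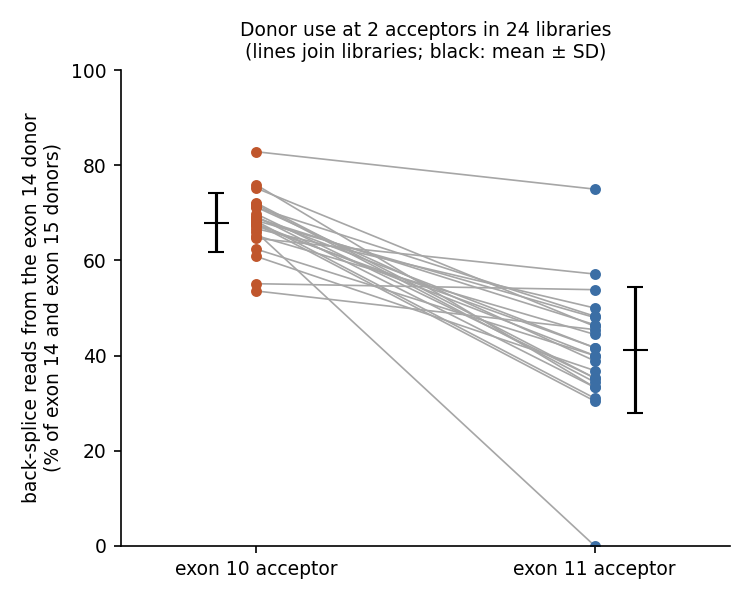
Share of the exon 14 donor (y axis, percent of back-splice reads from the exon 14 and exon 15 donors) for circles that begin at the exon 10 and the exon 11 acceptor in 24 libraries, with black marks for mean ± SD. Each line joins the 2 values of a library, and in 24 of 24 libraries the exon 10 value is the higher one (67.9% ± 6.17 against 41.1% ± 13.2).

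The next question was how the level of each circle followed age. circRNA_08751, the leading circle, had raw counts of 29, 44 and 44 in 1d pigs, 42, 29 and 37 in 7d pigs, 56, 60 and 54 in 14d pigs, and 58, 80 and 108 in 21d pigs. It had 67, 64 and 49 in 28d pigs, 60, 73 and 60 in 35d pigs, 257, 151 and 188 in 120d pigs, and 73, 100 and 106 in 180d pigs. The 3 libraries of 120d were the highest, and they also had the largest totals of back-splice reads in the series (71092 to 87867). After TMM scaling they still lay above all others, with 99.9 ± 18.4 normalized counts at 120d against 65.5 ± 7.38 at 1d (SD, n = 3 each). At 180d there were 76.4 ± 4.02, and the means of the other 5 stages lay between 53.8 ± 10.3 at 35d and 69.9 ± 9.65 at 21d. The log2 fold change of 120d over 1d was 0.61 (SE 0.21, 95% interval 0.19 to 1.02), and did not pass the test (edgeR quasi-likelihood, Benjamini-Hochberg adjusted p = 0.0718). That of 180d over 1d was 0.22 (SE 0.22, adjusted p = 0.598 by edgeR).

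circRNA_08758, the smallest circle of the middle group, was the one circRNA of the 12 that passed the test for an age trend, which 16.5% of all 3000 circRNAs passed. Its raw counts were 2, 0 and 4 in 1d pigs, 0, 3 and 6 in 7d pigs, 5, 5 and 2 in 14d pigs, and 8, 4 and 12 in 21d pigs. They were 13, 11 and 7 in 28d pigs, 9, 11 and 10 in 35d pigs, 28, 19 and 27 in 120d pigs, and 9, 22 and 10 in 180d pigs. All libraries from 28d onwards lay above all of 1d, also after scaling, whereas those of 7d, 14d and 21d overlapped 1d. The normalized means were 3.34 ± 3.06 in 1d pigs, 5.02 ± 4.81 in 7d pigs, 4.53 ± 1.80 in 14d pigs, 6.90 ± 2.98 in 21d pigs, 10.3 ± 1.90 in 28d pigs, 8.33 ± 1.24 in 35d pigs, 12.4 ± 1.22 in 120d pigs and 10.97 ± 4.32 in 180d pigs. circRNA_08758 rose by 0.27 log2 units per doubling of age (SE 0.08, 95% interval 0.12 to 0.42, edgeR adjusted p = 0.011). The call was lost without the 120d stage (0.24, edgeR adjusted p = 0.0793), an alternative chosen after seeing the data. It was also lost in the 17 libraries with a valid share of at least 0.96 (0.28, edgeR adjusted p = 0.165). Nor did it hold when all libraries were thinned to the lowest total of back-splice reads (0.18, edgeR adjusted p = 0.381). It stayed when any 1 library was left out, with slopes of 0.23 to 0.31 and adjusted p between 0.00681 and 0.0337.

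circRNA_08733 (exons 2 to 5), the most common circle of the 5′ group, had raw counts of 8, 12 and 12 in 1d pigs, 5, 4 and 10 in 7d pigs, 6, 6 and 11 in 14d pigs, and 13, 22 and 22 in 21d pigs. It had 11, 14 and 5 in 28d pigs, 11, 22 and 16 in 35d pigs, 20, 18 and 8 in 120d pigs, and 10, 7 and 11 in 180d pigs. After scaling, all libraries of 14d, 28d, 35d, 120d and 180d lay below those of 1d, and those of 7d and 21d overlapped them. The normalized mean was 7.98 ± 2.83 in 180d pigs and 7.91 ± 3.53 in 120d pigs, against 17.9 ± 1.92 in 1d pigs. The slope with age was −0.14 log2 units per doubling (SE 0.06) and did not pass the test over 3000 circRNAs (edgeR adjusted p = 0.0713). The log2 fold change was −1.19 (SE 0.49, edgeR adjusted p = 0.117) for 180d over 1d and −1.18 (SE 0.47, adjusted p = 0.116) for 120d over 1d. The slope passed the threshold with DESeq2's Wald test (−0.16, adjusted p = 0.0169), with DESeq2 size factors, with table totals and after filterByExpr. It did not pass after thinning (−0.11, edgeR adjusted p = 0.475) or with a valid share of at least 0.96 (−0.11, edgeR adjusted p = 0.449). Nor did it pass with any 1 library left out (edgeR adjusted p of 0.0544 to 0.146). Without the 120d or the 1d stage, alternatives chosen after seeing the data, it was −0.13 (edgeR adjusted p = 0.202 and 0.345). The call thus depended on the setting, and the slope was 0.07 when counts were taken relative to the clean reads of a library (adjusted p = 0.358 by edgeR).

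circRNA_08770 (exons 22 to 23), of the 3′ group, had its highest mean at 28d. It had raw counts of 0, 2 and 3 in 1d pigs, 6, 2 and 10 in 7d pigs, 3, 7 and 3 in 14d pigs, and 10, 13 and 14 in 21d pigs. It had 18, 9 and 14 in 28d pigs, 6, 15 and 12 in 35d pigs, 14, 4 and 27 in 120d pigs, and 10, 6 and 9 in 180d pigs. The scaled libraries of 21d, 28d and 35d lay above all of 1d, and those of the other stages overlapped it. The normalized mean was 14.3 ± 5.57 at 28d and 2.60 ± 2.34 at 1d. The log2 fold change of 28d over 1d was 2.29 (SE 0.75, edgeR adjusted p = 0.0981). The slope over all ages was 0.08 (SE 0.08, adjusted p = 0.54 by edgeR), and was −0.08 without the 1d stage, an alternative chosen after seeing the data.

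**Figure D3:**
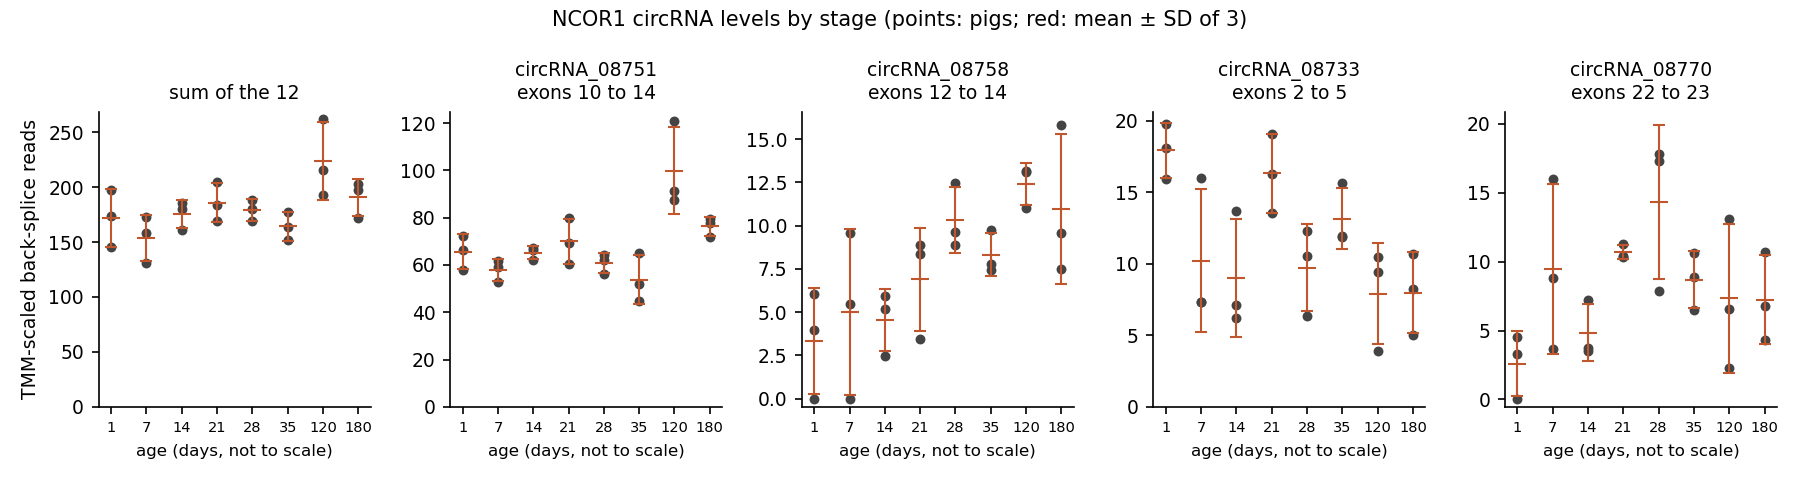
TMM-scaled back-splice reads (y axis) of all 12 NCOR1 circRNAs together and of circRNA_08751, circRNA_08758, circRNA_08733 and circRNA_08770 at 8 ages in days (x axis, not to scale), with 1 point per pig and red marks for mean ± SD of 3 pigs. circRNA_08751 is highest in 120d pigs (99.9 ± 18.4), circRNA_08758 is lowest in 1d pigs (3.34 ± 3.06), circRNA_08733 is highest in 1d pigs (17.9 ± 1.92) and circRNA_08770 is highest in 28d pigs (14.3 ± 5.57).

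Over the 12 circles, 1 passed the test of the age trend and it was higher with age, beside 16.5% of all 3000 circRNAs (322 higher and 173 lower, which became 204 and 282 with table totals and 1937 and 6 with clean reads in place of TMM). At an unadjusted p under 0.05 there were 3 of the 12, beside 912 of all 3000, namely circRNA_08758, circRNA_08733 and circRNA_08751 (slope 0.07, SE 0.03, edgeR adjusted p = 0.0913). Without the second library of 1d circRNA_08751 passed as well (0.09, edgeR adjusted p = 0.0461). The median slope of the 12 was 0.04 log2 units per doubling and that of all circRNAs 0.03. The 8 circles not described singly had slopes between −0.07 (circRNA_08734) and 0.08 (circRNA_08755), with edgeR adjusted p of 0.43 or more. They were circRNA_08731, circRNA_08732, circRNA_08734, circRNA_08746, circRNA_08752, circRNA_08755, circRNA_08756 and circRNA_08771.

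Against 1d, with an adjusted p under 0.05 and a log2 fold change of at least 1 in size as the threshold, edgeR called 0 of the 12 at each of the 7 later stages. Of all 3000 circRNAs it called 0% for 7d, 0.0667% for 14d, 0.933% for 21d, 1.57% for 28d, 2.17% for 35d, 6.1% for 120d and 9.3% for 180d. At an unadjusted p under 0.05 there were 1 of the 12 for 7d (284 of all 3000), 0 for 14d (257), 1 for 21d (325), 2 for 28d (387), 1 for 35d (397), 3 for 120d (588) and 2 for 180d (695). DESeq2's Wald test, run for 120d and 180d, called 1 at 120d and 0 at 180d, and its share over all circRNAs was not counted. With so few reads per circle a missed threshold does not show that a level was the same. For circRNA_08758, for example, the 95% interval of the log2 fold change of 180d over 1d ran from 0.26 to 3.11 (edgeR adjusted p = 0.14).

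Libraries that did not overlap with those of 1d were counted as well. At 120d the libraries of 2 circles (circRNA_08751, circRNA_08758) lay wholly above those of 1d and those of 1 (circRNA_08733) wholly below, beside 27.7% of all circRNAs in either direction. At 180d there were 1 above (circRNA_08758) and 1 below (circRNA_08733), beside 29.4%. At 28d there were 2 above (circRNA_08758, circRNA_08770) and 1 below (circRNA_08733), beside 18.4%, and at 35d 3 above, with circRNA_08732 in addition, and 1 below, beside 20.7%. At 7d circRNA_08752 lay below (12.5% of all circRNAs in either direction), at 14d circRNA_08733 lay below (13.2%), and at 21d circRNA_08770 lay above (16.5%).

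The sum of the 12 circles was 172 ± 26.1 normalized counts in 1d pigs, 154 ± 20.9 in 7d pigs, 176 ± 12.7 in 14d pigs, 186 ± 17.9 in 21d pigs, 179 ± 9.78 in 28d pigs, 164 ± 13.01 in 35d pigs, 224 ± 35.3 in 120d pigs and 191 ± 16.5 in 180d pigs. Its slope was 0.04 log2 units per doubling of age (SE 0.02, 95% interval 0.003 to 0.083) and did not pass the test over 1675 host genes (edgeR adjusted p = 0.119), of which 23.6% were called. Of these host genes, 790 had a steeper upward slope, and the median slope was 0.03. The log2 fold change of the sum was 0.38 (SE 0.17, edgeR adjusted p = 0.141) for 120d over 1d and 0.14 (SE 0.17, adjusted p = 0.641) for 180d over 1d. Leaving out 1 library, the second of 1d, gave a slope of 0.06 (edgeR adjusted p = 0.0445).

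All these levels are relative to the other circRNAs of the table. Per M clean reads of a library, as the study lists them, the sum was 0.922 ± 0.212 reads in 1d pigs, 0.887 ± 0.199 in 7d pigs, 1.38 ± 0.033 in 14d pigs, 1.93 ± 0.502 in 21d pigs, 1.69 ± 0.440 in 28d pigs, 1.89 ± 0.282 in 35d pigs, 4.08 ± 0.982 in 120d pigs and 2.17 ± 0.304 in 180d pigs. On that scale the slope of the sum was 0.26, the median slope of all circRNAs was 0.25, 9 of the 12 circles were called higher with age and 64.8% of all circRNAs were called. In a whole spleen, fewer cells of a type and less RNA per cell cannot be told apart.

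The shares of the circles were also compared between stages. circRNA_08751 took 38.2% ± 1.53 in 1d pigs, 37.8% ± 3.15 in 7d pigs, 37.2% ± 1.15 in 14d pigs, 37.5% ± 1.61 in 21d pigs, 34.1% ± 2.81 in 28d pigs, 32.5% ± 3.68 in 35d pigs, 44.6% ± 2.06 in 120d pigs and 40.2% ± 1.71 in 180d pigs. The 3 libraries of 120d held the highest shares of the series. The 5′ group took 12.2% ± 4.25 in 120d pigs and 15.8% ± 6.38 in 180d pigs, against 21.95% ± 1.24 in 1d pigs. Within it circRNA_08733 took 3.60% ± 1.80 in 120d pigs and 4.12% ± 1.17 in 180d pigs, against 10.5% ± 0.480 in 1d pigs. The 3 libraries of 120d and the 3 of 180d lay below those of 1d. circRNA_08758 took 5.60% ± 0.528 in 120d pigs and 5.91% ± 2.89 in 180d pigs, against 2.07% ± 1.83 in 1d pigs, also without overlap. How often shares of all circRNAs lay apart in this way was not counted. For levels it was 27.7% of all circRNAs at 120d and 29.4% at 180d. circRNA_08770 took 8.03% ± 3.23 at 28d, its highest stage, against 1.43% ± 1.32 at 1d. The effective number of isoforms was lowest at 120d with 4.02 ± 0.196 and highest at 28d with 5.76 ± 0.554.

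Isoform usage, the change of a circle relative to that of its whole gene, the circle included, was tested with edgeR's diffSpliceDGE. The test covered the 613 host genes with at least 2 circRNAs. Along age 0 of the 12 passed (edgeR adjusted p), beside 0.28% of 1786 circRNAs, and 2 had an unadjusted p under 0.05, beside 141 of 1786. These were circRNA_08733 (−0.18 log2 units per doubling, adjusted p = 0.195 by edgeR) and circRNA_08758 (0.22, adjusted p = 0.256 by edgeR). With limma's diffSplice, which sets a circle against the other circles of its gene, 1 passed, circRNA_08733 (−0.23, limma adjusted p = 0.0298). Its share of calls over all circRNAs was not counted. For the leading circRNA_08751 the value was 0.02 (edgeR adjusted p = 1) and with limma 0.06 (limma adjusted p = 0.449). For NCOR1 as a gene the adjusted p was 0.442 by edgeR. At 180d against 1d 0 of the 12 passed by edgeR, beside 0.168% of 1786, with 2 at an unadjusted p under 0.05 beside 127 of 1786, and limma's diffSplice called 0 as well. In the other 6 comparisons with 1d edgeR called no circRNA of any gene, with 1 or 2 of the 12 at an unadjusted p under 0.05 in each, beside 50 to 77 of 1786.

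**Figure D4:**
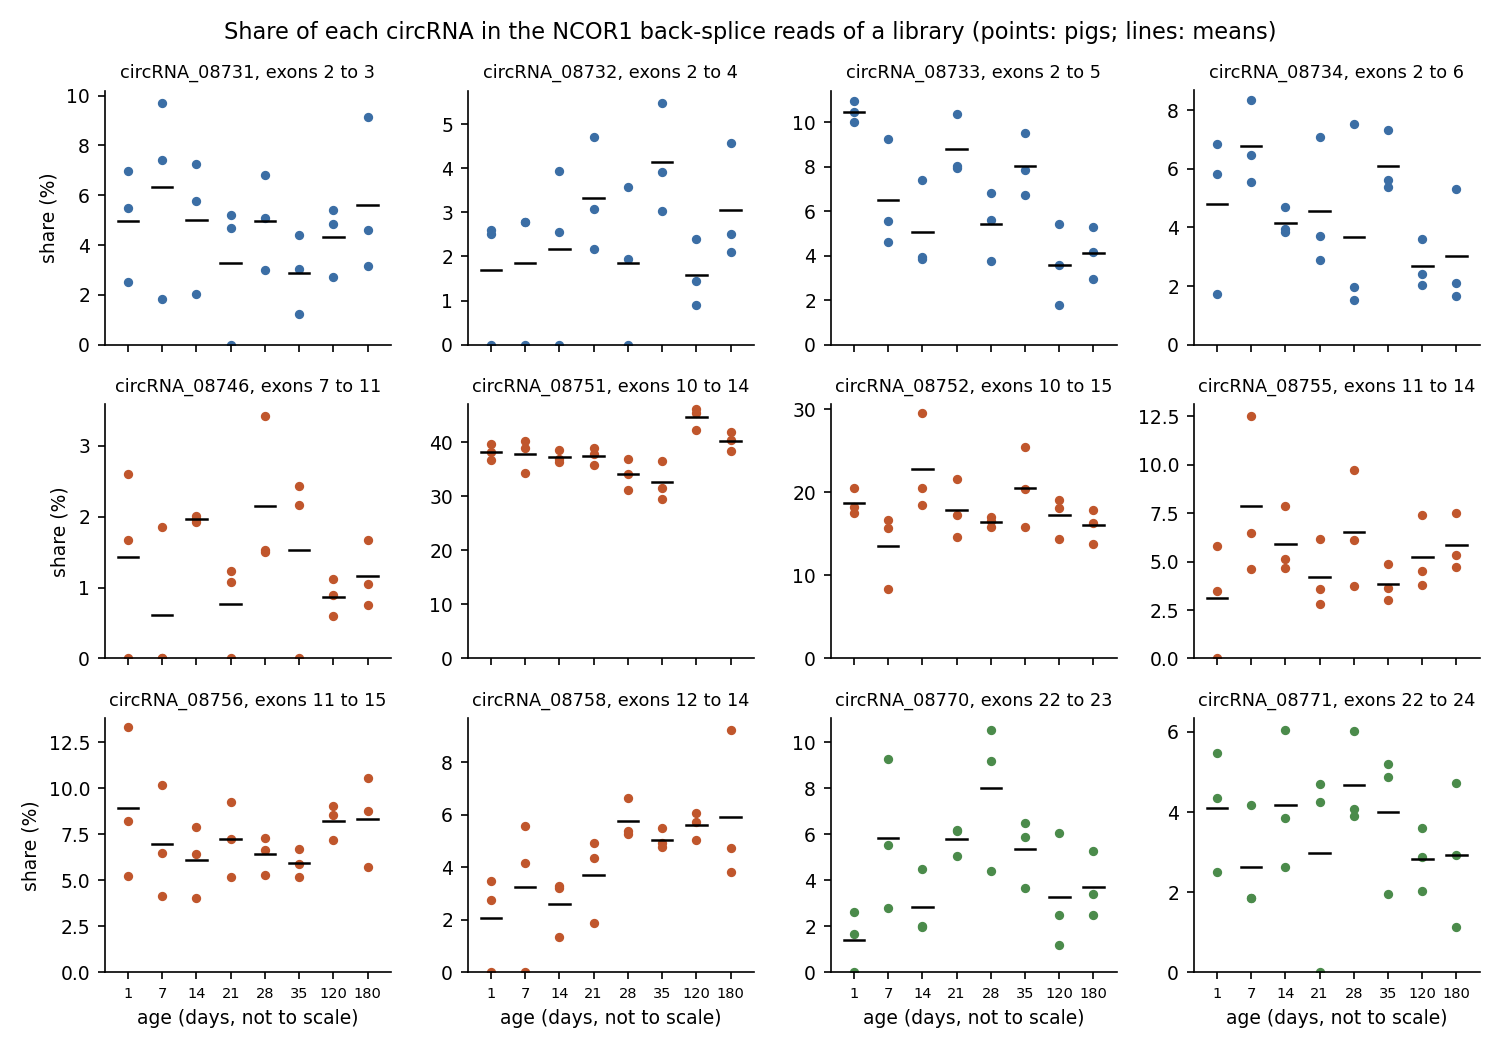
Share of each of the 12 NCOR1 circRNAs in the NCOR1 back-splice reads of a library (y axis, percent, with its own scale in each panel) at 8 ages in days (x axis, not to scale), with 1 point per pig and lines for the means of 3 pigs. circRNA_08751 stays between stage means of 32.5% and 44.6%, circRNA_08733 has its highest mean at 1d (10.5%), and circRNA_08758 and circRNA_08770 have their lowest there (2.07% and 1.43%).

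Other genes of the pathway were read through their own circRNAs, summed per host gene, and tested for an age trend. Of the 8 genes of the NCoR/SMRT complex itself, which holds HDAC3, TBL1X, TBL1XR1 and GPS2, only NCOR1 had circRNAs in the table. Of 27 genes of other histone deacetylase co-repressor complexes 8 were in the table, and 1 was lower with age. That was RBBP4, a histone-binding subunit of several such complexes, with 5.15 ± 3.198 normalized counts at 180d against 12.9 ± 5.20 at 1d (slope −0.19, SE 0.06, edgeR adjusted p = 0.021), but relative to clean reads its slope was 0.04 (adjusted p = 0.669 by edgeR). HDAC2, a deacetylase of those complexes, had 21.1 ± 1.64 at 180d against 12.1 ± 6.61 at 1d and did not pass (slope 0.15, edgeR adjusted p = 0.0729).

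Of 26 transcription factors known to recruit NCOR1, 2 were in the table, and both were lower with age relative to the other circRNAs but higher relative to clean reads. NR1H3, the oxysterol receptor LXR-alpha, had 114 ± 29.0 normalized counts at 180d against 180 ± 39.4 at 1d (slope −0.09, SE 0.02, edgeR adjusted p = 0.00486), and its slope on clean reads was 0.12 (adjusted p = 0.0072 by edgeR). NR2C1, the orphan receptor TR2, had 27.8 ± 2.74 at 180d against 44.6 ± 1.06 at 1d (slope −0.09, SE 0.03, edgeR adjusted p = 0.0407), and its slope on clean reads was 0.14 (adjusted p = 0.0104 by edgeR). Of 10 nuclear receptor co-activators 5 were in the table (NCOA3, NCOA6, CREBBP, EP300 and KMT2C). None of these 5 passed with edgeR, and none had an unadjusted p under 0.05. Across all host genes 15.9% were called higher and 7.76% lower.

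Of the host genes that mark cell types, 12 were in the table and 6 of them passed the test of the age trend, beside 23.6% of all host genes. The other 6 (AFF3, EPB41, CENPF, CENPE, KIF15 and TOP2A) did not pass. In the T and NK cell list 1 of 15 genes had a circRNA, CD96, with 32 to 67 raw counts at 180d against 0 to 3 at 1d, and it rose (slope 0.52, SE 0.06, edgeR adjusted p = 1.01e-08). In the B and plasma cell list 2 of 12 were in the table, with 21 to 73 raw counts together at 180d against 4 to 14 at 1d, and the B cell scaffold BANK1 rose (slope 0.41, SE 0.08, edgeR adjusted p = 0.000152). In the cell cycle list 7 of 16 were in the table, with 18 to 41 raw counts at 180d against 25 to 65 at 1d. The 1d libraries had the lower totals of back-splice reads. KIF11 (slope −0.35), BUB1 (−0.40) and MELK (−0.21), which act in cell division, fell with edgeR adjusted p of 0.000245 to 0.00664. Relative to clean reads these 3 slopes were −0.13, −0.18 and 0.02, and none passed. In the erythroid list 2 of 12 were in the table, with 43 to 81 raw counts at 180d against 72 to 73 at 1d, and the transferrin receptor gene TFRC fell (slope −0.48, SE 0.10, edgeR adjusted p = 0.00143). CD96 and BANK1 rose and TFRC fell on all 4 scalings tried. The remaining genes of these lists, CD3E, MKI67 and HBB among them, and all 10 macrophage and 12 stromal genes had no circRNA in the table. The part of these cell types in the trends of circRNA_08758 and of the other circles was not tested.

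Among the host genes whose circRNA level was most like that of the NCOR1 sum, by Pearson r of log2 CPM (counts per M counts) over the 24 libraries among 461 host genes with a mean of at least 20 normalized counts, were CDC42SE2 (r = 0.712), ZMYND11 (0.671), RAB6A (0.670) and RCBTB2 (0.665). All host genes share the stages and back-splice totals of the libraries, so these values only describe the order.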

How the data were processed

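The deposited table held the authors' counts of back-splice reads, whole numbers per circRNA and library without normalization. Per the labels and methods, reads were trimmed (cutadapt), aligned to Sscrofa11.1 with BWA (TopHat2 is also named) and circRNAs called with CIRI2. The labels and methods describe different extraction and library kits, and the rule that chose the 3000 circRNAs is not given in the sources used here. No count was 1, so single reads were listed at 0. Rare circles rest on few reads.

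Counts of all 3000 circRNAs were fitted over 24 libraries with edgeR 4.0.16 (TMM, robust glmQLFit, glmQLFTest, two-sided) in R 4.3.3, with a coefficient per stage or a slope per doubling of age (log2 days), and adjusted by Benjamini-Hochberg over the whole table. The threshold was an adjusted p of 0.05, and, against 1d, a log2 fold change of 1 or more in size. Between pigs of a stage the biological coefficient of variation was 0.300, and around the slope with age it was 0.330. Intervals are the estimate ± 1.96 SE. Counts were summed for 1675 host genes, and usage was tested with diffSpliceDGE. Shares are counts over the NCOR1 sum of the library. Inverted matches came from blastn 2.17.0. The fits were tested on simulated data.

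All NCOR1 circRNAs were named, and of each gene list the members called in the age trend, up to 4. HDAC2, the host genes set beside NCOR1 and the donor comparison were chosen after their values were seen. One host gene named by the rule on likeness is not reported here. The NCOR1 circRNAs and the lists were chosen with earlier results of these data known. Alternatives were DESeq2 1.42.0 (size factors, Wald test), table totals, clean reads per library from the study, filterByExpr, limma 3.58.1 diffSplice, thinning, the replicate number as a block, libraries with a valid share of at least 0.96, and leaving out each library. Figures were made with Python 3.11.15 and matplotlib 3.10.9.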

Additional observations from a re-analysis of the deposited data

How the results depend on the processing

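The count of NCOR1 circRNAs with an age trend (1 in the reported fit) was 2 with DESeq2 size factors, 2 with table totals, 9 with clean reads and 2 with DESeq2's Wald test. It was 2 after filterByExpr, which removed circRNA_08732, circRNA_08746 and circRNA_08771 before the test. After thinning to the lowest total of back-splice reads, where counts of 1 were again set to 0, it was 0. With a valid share of at least 0.96 it was 0, and it was 1 to 2 when each library was left out (2 without the second library of 1d). In stages left out after seeing the data it was 0 without 120d and 2 without 1d. With clean reads 5 circles were called at 180d and 7 at 120d against 1d, and DESeq2's Wald test called 1 at 120d. The slope of the NCOR1 sum was 0.26 with clean reads (edgeR adjusted p = 3.54e-07) and 0.0814 without the 1d stage (adjusted p = 0.0383), and 0.030 to 0.060 with each library left out. It was lower, also without passing, with table totals (0.0047), after thinning (0.014), without the 120d stage (0.020), with DESeq2's Wald test (0.022) and with DESeq2 size factors (0.026). Usage along age had 1 call with limma's diffSplice, where the share of all circRNAs called was not counted either. Of all circRNAs, 322 were called higher and 173 lower with TMM, 276 and 219 with DESeq2 size factors, 204 and 282 with table totals and 1937 and 6 with clean reads. The median slope of all circRNAs was 0.25 with clean reads, 0.01 with DESeq2 size factors and −0.01 with table totals, against 0.03 with TMM. The cause of the other changes was not tested.

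Some slopes that did not pass the test in the reported fit changed sign. With clean reads circRNA_08733 had 0.071, circRNA_08734 0.15, circRNA_08746 0.18 and circRNA_08771 0.21. circRNA_08752 had −0.0096 with table totals and −0.0066 after thinning. After thinning circRNA_08731 had −0.065 and circRNA_08771 0.050. With a valid share of at least 0.96 circRNA_08731 had −0.0017, circRNA_08746 0.029 and circRNA_08771 0.071. Without the 120d stage circRNA_08756 had −0.0041, and without the 1d stage circRNA_08770 had −0.078 and circRNA_08771 0.0061. With each library left out circRNA_08731 ran from −0.0079 to 0.084, circRNA_08746 from −0.074 to 0.024 and circRNA_08771 from −0.031 to 0.022.

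Between stages, libraries of 1 replicate number deviated from their stage means with a mean correlation of 0.00624 over 84 pairs. For libraries of different numbers it was −0.0031 over 168 pairs. Of 24 libraries 13 correlated best with their own number. These values do not settle whether the numbers pair the pigs. With the number as a block the count of age trends was 1, the slope of circRNA_08758 was 0.27 (edgeR adjusted p = 0.0129) and the slope of the sum was 0.042 (adjusted p = 0.134), and the block changed no call.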
